A study of Mus musculus with 18 samples.

Results

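The measurements concern 10 nuclear receptor genes that handle lipids, bile acids and foreign compounds in the liver: Ppara, Ppard, Pparg, Nr1i2, Nr1i3, Nr1h3, Nr1h4, Nr5a2, Hnf4a and Rxra. They were taken by symbol, and all 10 were found among the 19057 rows of the deposited liver RNA sequencing table. All 10 also passed the filter on low values (at least 1 RPKM in at least 3 libraries), and 37 of 39 further nuclear receptors were present in the table for comparison. RPKM are reads divided by transcript length and by the mapped reads of the library, so levels of different genes can be set side by side on this scale.

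Livers came from male mice of the outbred ICR strain, sampled at 10 weeks of age, with 3 mice in each of 6 groups. Con mice received saline. STZ mice received 1 injection of streptozotocin, a toxin of the insulin-producing beta cells that leaves the animals with the insulin-deficient form of diabetes. A10-FMT and Con-FMT mice received the same injection and then oral transplants of small intestinal microbiota, pooled from donors given alginate oligosaccharide (AOS) at 10 mg/kg or from donors given water. The AOS and STZ+AOS groups occur in the sample labels only, as AOS at 10 mg/kg alone or together with streptozotocin. The labels name no genotype other than the strain. Albumin (Alb), a defining product of hepatocytes, stood at 24367 RPKM in the lowest library of Con and STZ, and the other 6 hepatocyte markers were at 46.7 RPKM or more in every library of these groups.

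Nuclear receptors are transcription factors switched by small lipophilic ligands, and most of those described here bind DNA as a pair with Rxra, the shared partner. Ppara drives fatty acid oxidation in the fasted liver, Ppard acts on fuel use in many tissues, and Pparg promotes lipid storage. Nr1i3 (CAR) and Nr1i2 (PXR) switch on drug-metabolizing enzymes and transporters, Nr1h3 (LXR alpha) senses oxysterols, Nr1h4 (FXR) senses bile acids, Nr5a2 (LRH-1) promotes bile acid synthesis, and Hnf4a maintains hepatocyte identity. Many of these receptors bind DNA at copies of the motif AGGTCA.

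To show where that motif lies in the members the results turn on, the 250 bases before the RefSeq start are given for Ppard, the receptor that was lower in STZ, for the one with the largest rise, Nr1i3, and for Nr5a2, which rose and holds the motif in 1 of its 2 windows. Rxra and Pparg also rose and hold the motif, in 1 of 2 and 2 of 3 windows. Nr1i3, Hnf4a and Nr1i2 rose and hold none in their windows, while Nr1h4 holds the motif and did not pass. The windows are from RefSeq, build GRCm38.p6, and run from 5′ to 3′ on the strand of the gene, with AGGTCA on either strand in capitals. Ppard lies at chr17:28232504-28232753 on the plus strand, Nr1i3 at chr1:171213720-171213969 on the plus strand and Nr5a2 at chr1:136960449-136960698 on the minus strand. The motif of Nr5a2 begins at base -64, counted from the base before the start as -1, and the other window of Nr5a2, chr1:136953631-136953880, holds none.
Ppard: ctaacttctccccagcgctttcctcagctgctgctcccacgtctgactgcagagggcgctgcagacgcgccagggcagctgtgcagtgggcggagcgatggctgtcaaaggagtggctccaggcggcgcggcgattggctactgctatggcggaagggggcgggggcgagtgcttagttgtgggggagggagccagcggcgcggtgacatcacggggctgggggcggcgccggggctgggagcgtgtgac
Nr1i3: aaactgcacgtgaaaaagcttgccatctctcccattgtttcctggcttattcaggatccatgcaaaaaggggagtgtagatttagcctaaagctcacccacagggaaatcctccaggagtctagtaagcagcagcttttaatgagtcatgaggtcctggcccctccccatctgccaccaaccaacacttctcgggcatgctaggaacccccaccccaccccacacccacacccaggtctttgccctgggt
Nr5a2: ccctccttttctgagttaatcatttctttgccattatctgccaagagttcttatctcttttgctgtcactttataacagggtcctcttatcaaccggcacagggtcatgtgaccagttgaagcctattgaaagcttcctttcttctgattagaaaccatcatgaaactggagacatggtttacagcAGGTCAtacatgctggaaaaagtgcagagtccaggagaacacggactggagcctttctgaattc
AGGTCA was searched on both strands. It occurred in 5 of 16 windows of the 10 receptors (those of Nr1h4, Nr5a2, Pparg and Rxra) and in 4607 of 32851 windows of all genes (14.0%). A direct repeat of AGGTCA with 1 base between the copies occurred in 11 of all windows (0.033%) and in 0 of those of the receptors. These matches describe letters in a window and not sites in use.

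Before the receptors are compared, 4 libraries need to be singled out. Con mouse 3 and AOS mouse 3 lay between the other mice of their group in nearly every gene that separated those mice. Among 5441 genes above 5 RPKM in all 18 libraries, 313 differed more than 1.5-fold between Con mice 1 and 2. Con mouse 3 lay between them in 313 of 313 (100%) and differed by a median of 4.2% from a weighted mean of 52% Con mouse 1 and 48% Con mouse 2. AOS mouse 3 lay between AOS mice 1 and 2 in 177 of 180 such genes (98.3%), with a median distance of 3.96% from a mean of 35% and 65%. For the libraries of the groups given streptozotocin the share between ran from 38.9% to 86.9% and the median distance from 11.4% to 31.3%, with Con-FMT mouse 3 at the near end. Mice 1 and 2 of Con and AOS are the outer mice where mouse 3 lies between. Their shares were 1.89% to 12.8% and their distances 29.7% to 84.5%. Whether Con mouse 3 and AOS mouse 3 are independent of the others of their group was not tested, and p-values measure only the spread between the deposited libraries. A library between the other 2 of its group cannot change whether groups overlap. Counts of groups without overlap against Con or AOS therefore rest mainly on mice 1 and 2. The counts of receptors called against Con and AOS are also given without Con mouse 3 and AOS mouse 3, a choice made after seeing the data. So are the counts of called targets, coregulators, further receptors and cell markers in STZ against Con, where this moved them.

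**Figure D1:**
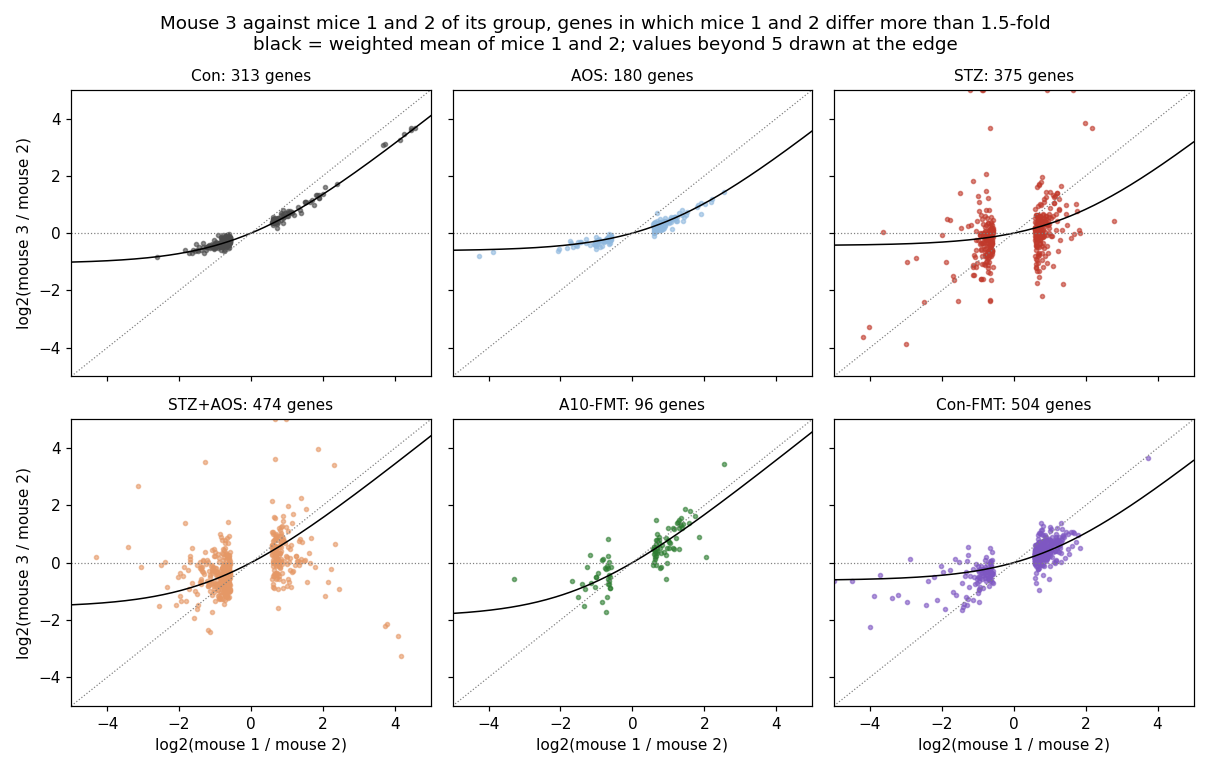
Each point is a gene above 5 RPKM in all libraries that differed more than 1.5-fold between mice 1 and 2 of a group; the horizontal axis is log2 of mouse 1 over mouse 2 and the vertical axis log2 of mouse 3 over mouse 2. In Con (313 genes) and AOS (180 genes) mouse 3 follows the black line of a weighted mean of mice 1 and 2, whereas in the other 4 groups the points scatter around it.

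STZ mouse 3 and STZ+AOS mouse 3 stood apart in other ways. On the first principal component of all genes (57.0% of the variance), STZ mice 1 and 2 lay at 45.9 and 46.4 but mouse 3 at 0.182, while Con mice lay between -42.6 and -37.6. The major urinary protein genes, products of male hepatocytes, took 0.0327%, 0.0274% and 19.2% of the summed RPKM in STZ mice 1, 2 and 3, and 35.9%, 23.7% and 27% in Con mice. STZ+AOS mouse 3 held 36.5 RPKM of Ctrb1, a digestive enzyme of the pancreas, against at most 0.61 RPKM in every other library, and it had the highest Hnf4a of all. Values of Hnf4a, Nr1i2 and Nr1i3 without 1 of these libraries are given with the comparisons that follow.

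In Con livers the receptors spanned more than an order of magnitude per length. Hnf4a was the highest, at 102, 109 and 107 RPKM in mice 1, 2 and 3. Rxra (64.5, 60.7 and 65.5 RPKM), Nr1h4 (54.4, 65.5 and 58.6 RPKM), Nr1i3 (32.3, 61.1 and 47.3 RPKM) and Nr1h3 (37.3, 41.2 and 41.3 RPKM) followed, with overlapping mice between neighbours in that order. Nr1i2 (19.5, 25.3 and 23.3 RPKM), Ppard (16.0, 18.1 and 18.7 RPKM) and Ppara (12.01, 19.5 and 17.0 RPKM) formed a lower tier. Nr5a2 stood at 8.15, 11.1 and 8.81 RPKM and Pparg, the lowest, at 2.67, 4.44 and 3.16 RPKM. From the steps between the lowest values, each library held an estimated 10827000 to 12107000 reads, which puts the fewest reads behind a value at 68 for Pparg and 77 for Ppard, a counting error of 12.1% and 11.4%.

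**Figure D2:**
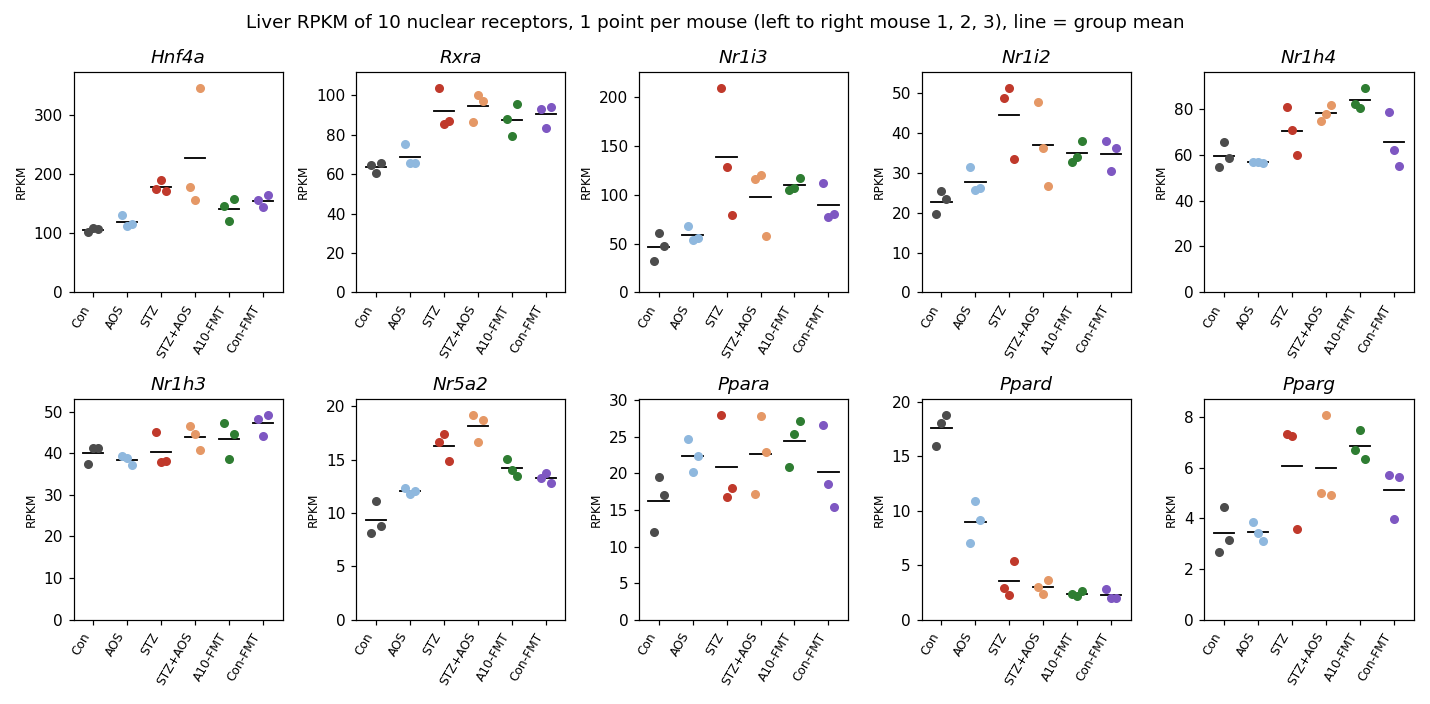
RPKM (vertical axis, from 0) of each of the 10 receptors in every mouse of the 6 groups; points are mice 1, 2 and 3 from left to right and lines are group means. Ppard is at 16.0 RPKM or more in Con and at 5.36 RPKM or less in the 4 groups given streptozotocin, with AOS between, while Hnf4a, Rxra, Nr1i3, Nr1i2 and Nr5a2 are higher in STZ than in Con.

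The comparison of STZ with Con asks how the receptors differ between insulin-deficient and untreated livers. Ppard was lower and Nr1i3, Nr1i2, Hnf4a, Nr5a2, Pparg and Rxra were higher in STZ, which is 7 of 10 receptors called by limma at an adjusted p under 0.05 (6 higher and 1 lower). The background was high, since 38.5% of all 10602 genes tested were called, 33.0% as higher and 5.52% as lower, and the median of all genes was a difference of 0.21 in log2(RPKM + 1). Of the called genes 3502 were higher and 585 lower, a split that became 1488 and 1405 after median-ratio scaling. The median of the 10 receptors was 0.58, and 8 of 10 lay above the median of all genes. Without Con mouse 3, 6 receptors were called (5 higher and 1 lower, Pparg no longer) against 25.9% of all genes. After median-ratio scaling, which moved the median of all genes to -0.01, 5 were called, and Rxra and Pparg no longer were. In bulk liver, fewer cells of a type and less RNA per cell cannot be told apart.

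Ppard showed the widest separation. It stood at 16.0, 18.1 and 18.7 RPKM in Con mice and at 2.93, 2.31 and 5.36 RPKM in STZ mice. All 3 STZ mice were below all Con mice, and STZ mouse 3 was the highest of the 3. The difference in log2(RPKM + 1) was -2.09 (SE 0.20, limma adjusted p = 0.00019, n = 3 per group). It was -2.05 (adjusted p = 0.0023) without Con mouse 3 and -2.32 after median-ratio scaling. The other PPAR genes did not fall. Ppara, the main fatty acid oxidation regulator, stood at 27.9, 16.8 and 18.1 RPKM in STZ mice, which overlapped Con (difference 0.34, SE 0.24, adjusted p = 0.27). Pparg, the lipid storage receptor, stood at 7.33, 7.24 and 3.60 RPKM in STZ. Its mouse 3 lay within the Con range, and the difference of 0.64 (SE 0.22, adjusted p = 0.042) was lost under median-ratio scaling (0.43, adjusted p = 0.14) and without Con mouse 1 (adjusted p = 0.15), Con mouse 3 (0.11), STZ mouse 1 (0.14) or STZ mouse 2 (0.15). It was also lost in other settings, with adjusted p up to 0.16.

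The sensors of foreign compounds rose together. Nr1i3 stood at 209, 129 and 78.9 RPKM in STZ mice against 32.3 to 61.1 RPKM in Con, and Nr1i2 at 48.7, 51.1 and 33.4 RPKM against 19.5 to 25.3 RPKM. Neither receptor overlapped between the groups, and STZ mouse 3 was the lowest STZ mouse for both. The difference in log2(RPKM + 1) was 1.48 (SE 0.31, adjusted p = 0.0046) for Nr1i3, the largest rise of the 10, and 0.92 (SE 0.16, adjusted p = 0.0020) for Nr1i2. Without Con mouse 3 these were 1.51 (adjusted p = 0.017) and 0.94 (adjusted p = 0.0091), and after median-ratio scaling they were 1.22 and 0.66.

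Hnf4a, the hepatocyte identity factor, stood at 175, 190.4 and 172 RPKM in STZ mice against 102 to 109 RPKM in Con (difference 0.75, SE 0.11, adjusted p = 0.0010). Nr5a2, which promotes bile acid synthesis, stood at 16.6, 17.4 and 14.9 RPKM against 8.15 to 11.1 RPKM (difference 0.75, SE 0.11, adjusted p = 0.00086). Rxra, the shared partner, stood at 104, 85.4 and 87.0 RPKM against 60.7 to 65.5 RPKM (difference 0.52, SE 0.11, adjusted p = 0.0041). In all 3 genes every STZ mouse was above every Con mouse, and the changes without Con mouse 3 were 0.76, 0.71 and 0.54. After median-ratio scaling they were 0.49, 0.50 and 0.26, and the last of these, that of Rxra, no longer passed (adjusted p = 0.077).

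The bile acid and oxysterol sensors did not pass. Nr1h4 stood at 80.5, 70.7 and 59.9 RPKM in STZ mice and Nr1h3 at 45.0, 37.9 and 38.2 RPKM, both overlapping Con. Their differences of 0.23 (adjusted p = 0.22) and 0.01 (adjusted p = 0.95) turned to -0.03 and -0.25 after median-ratio scaling. The 95% intervals were -0.08 to 0.55 for Nr1h4 and -0.22 to 0.24 for Nr1h3. Counting genes whose groups did not overlap, 5 receptors were higher and 1 was lower in STZ, against 40.8% and 6.98% of all genes.

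**Figure D3:**
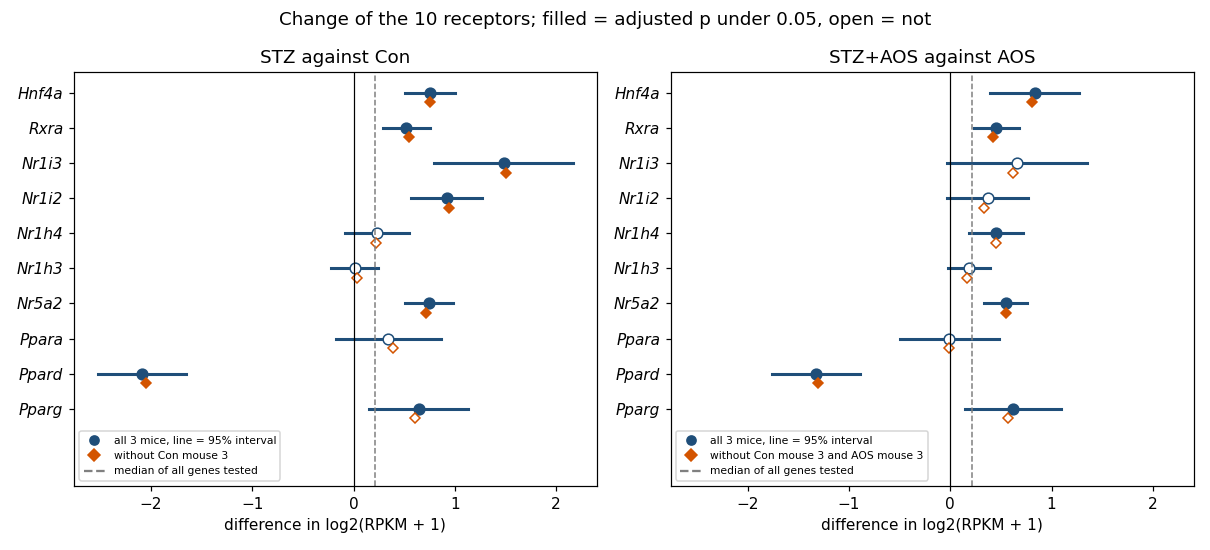
Difference in log2(RPKM + 1) of each receptor (horizontal axis) in STZ against Con and in STZ+AOS against AOS; circles with 95% intervals use all mice, diamonds leave out Con mouse 3 or Con mouse 3 and AOS mouse 3, filled symbols have an adjusted p under 0.05, and the dashed line is the median of all genes (0.21 in both panels). Ppard lies left of 0 in both panels; Nr1h3 lies near 0 and Nr1h4 near the dashed line in STZ against Con, where their direction turned after median-ratio scaling.

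Markers of other liver cells moved with STZ in part. The summed RPKM of 7 stellate cell markers, of which Dcn was the most abundant, was 73.2 to 85.04 in Con and 111 to 133 in STZ, with 1 of 7 called as higher (0 without Con mouse 3 or after median-ratio scaling). Most of this sum was Dcn (61.4 to 71.6 RPKM in Con, 99.6 to 117 RPKM in STZ). The median difference of the 7 stellate markers was 0.12, beside 0.21 for all genes. For 7 Kupffer cell markers the sums were 62.8 to 94.5 in Con and 93.8 to 206 in STZ, and the 1 called as higher was the scavenger receptor Marco (3.34, 1.81 and 2.96 RPKM in Con, 21.1, 67.4 and 9.67 RPKM in STZ). For 6 endothelial markers the sums were 49.0 to 55.5 and 54.8 to 70.3, with 2 called as higher (1 without Con mouse 3 or after median-ratio scaling). Lower were Sox9, 1 of 3 tested cholangiocyte markers (difference -0.73), S100a9, 1 of 2 tested lymphocyte and neutrophil markers (-1.06, a call lost without Con mouse 3), and Alas2, 1 of 4 tested erythroid markers (-3.19). The sum of the lymphocyte and neutrophil markers was 4.81 to 11.85 in Con and 1.91 to 4.40 in STZ, without overlap. Hepatocyte markers split, with Cps1, Cyp2e1 and Tdo2 higher and Apoa1, Ttr and Serpina1a lower (2 and 2 without Con mouse 3, 2 and 3 after median-ratio scaling). The difference of Apoa1 was -0.70 (adjusted p = 0.032), with an adjusted p of 0.082 without Con mouse 3, and it turned to 0.063 after quantile normalization. These members were named after their values were seen. Of 6 adipocyte markers, 5 (Adipoq, Plin1, Lep, Retn and Cfd) stayed under 1 RPKM in all 18 libraries, with Adipoq listed at 0 in all 3 Con mice and at no more than 0.12 RPKM in STZ. The sum of the 6 was 4.03 to 5.17 in Con and 5.32 to 6.91 in STZ, without overlap. Most of it was Lipe, at 4.03 to 5.01 RPKM in Con and 5.26 to 6.85 RPKM in STZ. Lipe was the 1 adipocyte marker tested and was not called (difference 0.33). The part of other cell types in the receptor values was not tested.

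The genes that the receptors are known to regulate were counted by list, beside the 33.0% of all genes called as higher and 5.52% called as lower in STZ against Con. The list medians of differences in log2(RPKM + 1) stand beside the 0.21 of all genes. The lists were chosen with earlier results of these data known, so their counts are descriptions.

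Of the targets of Nr1i3 and Nr1i2, 14 of 16 tested were higher and 0 lower, with a median of 1.63 (13 of 16 without Con mouse 3). Slco1a4, an uptake transporter of bile acids and drugs, stood at 2.78, 8.43 and 5.55 RPKM in Con and 154, 131 and 66.5 RPKM in STZ (difference 4.18, adjusted p = 0.00029). Cyp2b10, the classic CAR target enzyme, stood at 0.62, 1.42 and 1.55 RPKM in Con and 39.0, 25.3 and 26.7 RPKM in STZ (difference 3.84, adjusted p = 4.9e-05). Por, the reductase that serves all microsomal cytochromes P450, rose by 3.11 and Abcc2, a canalicular export pump, by 1.25. Their groups did not overlap.

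Among targets of Ppara, 18 of 27 were higher and 1 was lower, with a median of 0.85. The fatty acid omega-hydroxylases stood far apart from the rest: Cyp4a10 was at 1.29, 2.76 and 2.77 RPKM in Con and 1264, 1178 and 696 RPKM in STZ (difference 8.31, adjusted p = 1.9e-05), and Cyp4a14 was at 0.20, 0.57 and 0.55 RPKM in Con and 885, 1111 and 409 RPKM in STZ (difference 9.02, adjusted p = 3.9e-05). The acyl-CoA thioesterases Acot2 and Acot1 rose by 2.27 and 2.24. Fabp1, the liver fatty acid binding protein, was the 1 target that fell (difference -1.52, adjusted p = 0.010). After quantile normalization, or with only Con and STZ in the fit, 0 targets of Ppara were called lower. Without Con mouse 3, 16 of 26 tested were higher and 1 was lower. Only 2 of 6 targets of Pparg passed the filter, and both rose, Cd36, a fatty acid uptake receptor, by 2.11 and Fabp4, a fatty acid carrier of adipocytes and macrophages, by 1.14, the latter with an adjusted p = 0.020 that became 0.065 without Con mouse 3, 0.057 and 0.085 without STZ mouse 1 or 2, and 0.051 after median-ratio scaling.

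Of 7 tested targets of Nr1h4, 5 were higher and 0 lower, with a median of 0.91 (4 and a median of 0.64 after median-ratio scaling). The hepatocyte exporters Abcb4 (36, 33.0 and 34.7 RPKM in Con, 104, 102 and 100.2 RPKM in STZ) and Abcb11, the bile salt export pump, rose by 1.53 and 0.91. The others were Apoc2 and Slc27a5, a bile acid ligase, at 0.91 and 0.75, and the exporter subunit Slc51b at 1.13, whose call was lost after median-ratio scaling (adjusted p = 0.062) and without Con mouse 2 (0.082), STZ mouse 1 (0.077) or STZ mouse 2 (0.088). The corepressor Nr0b2 (SHP) itself, at 75.0, 71.4 and 42.9 RPKM in STZ and 48.7, 41.8 and 48.7 RPKM in Con, did not pass (0.40, adjusted p = 0.30). The bile acid enzymes under Nr5a2 and Nr0b2, Cyp7a1 and Cyp8b1, did not pass either (0.40 and -0.10, adjusted p = 0.45 and 0.83), and each reversed its direction without single mice.

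Targets of Nr1h3 split in direction, with 4 of 12 higher and 2 lower and a median of 0.18 (-0.07 after median-ratio scaling). The sterol exporters Abcg5 (17.7, 14.7 and 16.6 RPKM in Con, 79.5, 53.8 and 43.2 RPKM in STZ) and Abcg8 rose by 1.75 and 1.49, and Abcg1 rose by 0.69. The 2 that fell were both lipogenic enzymes, Scd1, the stearoyl-CoA desaturase, from 676, 815 and 740.0 RPKM in Con to 30.9, 22.5 and 94.4 RPKM in STZ (difference -4.16, adjusted p = 0.0035), and Fasn, the fatty acid synthase, with a difference of -0.9995 (adjusted p = 0.013). Without STZ mouse 2, Scd1 was the 1 target still called lower, and Fasn was not. Acaca, the acetyl-CoA carboxylase of the same pathway, did not pass (0.15, adjusted p = 0.40). Targets of Hnf4a split as well, with 4 of 10 higher and 2 lower (2 and 1 without Con mouse 3, 2 and 2 after median-ratio scaling). Slc10a1, the bile acid importer, rose by 0.93, Tat, a gluconeogenic aminotransferase, by 1.27 and the clotting factor F9 by 0.32, while Ttr, the thyroxine carrier, fell (difference -0.92, adjusted p = 0.0056). The rise of F9 was lost after median-ratio scaling (adjusted p = 0.69) and without Con mouse 2 (0.057), Con mouse 3 (0.057) or STZ mouse 2 (0.064).

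**Figure D4:**
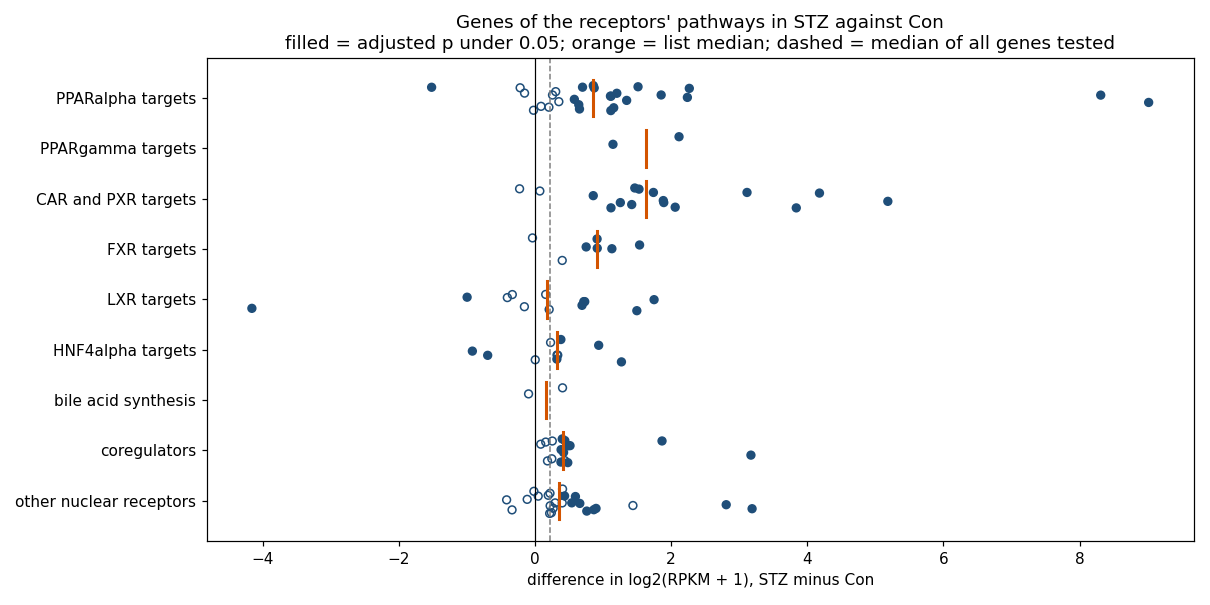
Difference in log2(RPKM + 1) between STZ and Con (horizontal axis) for each tested gene of 9 lists; filled points have an adjusted p under 0.05, orange bars are list medians and the dashed line is the median of all genes (0.21). The median of CAR and PXR targets is 1.63, while the LXR targets, with a median of 0.18, hold the far left point, Scd1 at -4.16.

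Of 16 coregulators, 10 were higher in STZ and 0 lower (median 0.41), against 8 without Con mouse 3, 6 without Con mouse 1 or STZ mouse 2 and 3 after median-ratio scaling. The PPAR coactivators Lpin1 (4.20, 5.94 and 5.22 RPKM in Con, 48.5, 70.3 and 45.5 RPKM in STZ) and Ppargc1a (0.56, 0.77 and 0.68 RPKM in Con, 4.72, 8.84 and 2.98 RPKM in STZ) rose by 3.17 and 1.86. Tbl1x and Ncoa2 followed at 0.48 and 0.44. Of 24 further nuclear receptors tested, 9 were higher and 0 lower (8 and 0 without Con mouse 3, 2 lower without STZ mouse 1, 5 and 2 after median-ratio scaling). The clock repressors Nr1d1 (1.22, 3.68 and 2.72 RPKM in Con, 32.9, 35.1 and 22.9 RPKM in STZ) and Nr1d2 (2.05, 3.03 and 2.49 RPKM in Con, 31.7, 28.8 and 14.1 RPKM in STZ) rose by 3.19 and 2.81. Esrra, a regulator of mitochondrial genes, rose by 0.89, Rarb by 0.86, Rora by 0.66 and Nr1h2 (LXR beta), the close relative of Nr1h3, by 0.54.

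AOS alone was set against Con to see whether the oligosaccharide altered the receptors in livers without streptozotocin. With limma, 0 of 10 receptors were called, 2 had an unadjusted p under 0.05, and 0.00924% of all 10822 genes were called (7.22% at an unadjusted p under 0.05). Ppard stood at 7, 10.9 and 9.11 RPKM in AOS mice, below all Con mice and above all mice given streptozotocin. Its difference was -0.91 (SE 0.20, unadjusted p = 0.00042, adjusted p = 0.29). Nr5a2 stood at 12.3, 11.8 and 12.1 RPKM, above all Con mice (difference 0.35, SE 0.10, adjusted p = 0.52). Groups without overlap were seen for 5 receptors higher in AOS and 1 lower, against 19.1% and 5.24% of all genes. Mouse 3 lay between the other mice of its group in 7 of 10 receptors in Con and 6 in AOS. This count therefore describes little more than 2 mice per group, and no effect of AOS is read from it. The summed RPKM of the erythroid markers did not overlap either, at 2112 to 2742 in AOS and 1256 to 1972 in Con. The part of these cells in the receptor values was not tested. Without Con mouse 3 and AOS mouse 3, 0 receptors were called and the difference of Ppard was -0.88, from 2 mice per group.

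STZ+AOS against AOS repeats the streptozotocin comparison in mice that share no animal with STZ or Con, though all 6 of these mice received AOS. Here 6 receptors were called, 5 higher and 1 lower, against 37.9% of all genes (31.8% higher and 6.11% lower) and a median of all genes of 0.21. Ppard stood at 2.98, 2.33 and 3.63 RPKM in STZ+AOS, below all AOS mice (difference -1.32, SE 0.20, adjusted p = 0.00040). Nr5a2 stood at 19.1, 16.6 and 18.7 RPKM (difference 0.55, SE 0.10, adjusted p = 0.0011), and Rxra at 86.7, 100.3 and 97.1 RPKM (difference 0.45, SE 0.11, adjusted p = 0.0044). Neither overlapped with AOS.

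Hnf4a stood at 179, 157 and 346 RPKM in STZ+AOS, all above the AOS mice at 131, 112 and 115 RPKM, with mouse 3 far above the rest (difference 0.84, SE 0.21, adjusted p = 0.0064). Without STZ+AOS mouse 3 the difference of Hnf4a was 0.49 (adjusted p = 0.0083), and with only AOS and STZ+AOS in the fit it did not pass (adjusted p = 0.070). Nr1h4 stood at 74.7, 77.7 and 81.4 RPKM against 56.7, 56.9 and 56.3 RPKM in AOS (difference 0.45, adjusted p = 0.012), and Pparg at 5.01, 8.07 and 4.93 RPKM against 3.87, 3.41 and 3.13 RPKM (difference 0.62, adjusted p = 0.038). Without Con mouse 3 and AOS mouse 3, Ppard (-1.31, adjusted p = 0.0050), Nr5a2, Rxra and Hnf4a were still called, against 23.1% of all genes, and Nr1h4 (adjusted p = 0.052) and Pparg (adjusted p = 0.13) were not. After median-ratio scaling Ppard, Nr5a2 and Hnf4a were called, beside 2654 of 10822 genes.

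Markers of other cells moved here too. Called as higher were 1 of 7 stellate, 1 of 7 Kupffer and 1 of 6 endothelial markers. Of 2 tested lymphocyte and neutrophil markers 1 was higher, where 1 was lower in STZ against Con. The endothelial and the lymphocyte and neutrophil calls were lost without Con mouse 3 and AOS mouse 3. Of 4 tested erythroid markers 1 was lower, and hepatocyte markers split into 2 higher and 3 lower. The summed RPKM did not overlap between AOS and STZ+AOS for stellate (82.9 to 92.3 and 132 to 155), Kupffer (76.4 to 107 and 109 to 144) and endothelial cell markers (54.7 to 62.0 and 63.9 to 82.2), nor for adipocyte (4.15 to 4.75 and 4.81 to 7.5), erythroid (2112 to 2742 and 280 to 1502) and hepatocyte markers (49620 to 56442 and 36865 to 46191), of which the last 2 were lower in STZ+AOS. Most of the stellate sum was Dcn, at 71.85 to 79.2 RPKM in AOS and 123 to 142 RPKM in STZ+AOS. The median difference of the stellate markers was 0.20, beside 0.21 for all genes. Most of the adipocyte sum was Lipe, at 4.15 to 4.59 RPKM in AOS and 4.81 to 7.44 RPKM in STZ+AOS. Lipe was the 1 tested adipocyte marker and was not called (difference 0.32). The part of these cell types in the receptor values was not tested.

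The xenobiotic sensors did not pass in this pair of groups. Nr1i3 stood at 116, 121 and 57.4 RPKM in STZ+AOS against 67.5, 53.3 and 55.7 RPKM in AOS (difference 0.66, adjusted p = 0.12), and Nr1i2 at 47.6, 36.2 and 26.7 RPKM against 31.3, 25.6 and 26.1 RPKM (difference 0.37, adjusted p = 0.13). STZ+AOS mouse 3 was the low mouse for both, and without it they passed (1.00, adjusted p = 0.027, and 0.57, adjusted p = 0.026). Of the targets of Nr1i3 and Nr1i2, 13 of 17 were higher and 2 lower, against 31.8% and 6.11% of all genes, with Por up by 3.40 and Cyp2b10 by 4.69. Leaving out Con mouse 3 and AOS mouse 3 gave 13 and 1, and median-ratio scaling 11 and 3. Of those of Ppara, 14 of 27 were higher and 3 lower, with Cyp4a10 up by 7.01 and Cyp4a14 by 7.85. These became 10 and 3 when the same mice were left out, and 9 and 4 after median-ratio scaling. Nr1h3 and Ppara themselves gave differences of 0.19 and -0.01 (adjusted p = 0.13 and 0.98), the former turning to -0.05 after median-ratio scaling.

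Whether the effect of streptozotocin differed between mice with and without AOS was tested as a difference of differences. It passed for 0 of 10 receptors and for 0.00% of all genes (5.40% at an unadjusted p under 0.05). Ppard came nearest, at 0.77 (95% interval 0.15 to 1.38, unadjusted p = 0.017, adjusted p = 0.86), beside values of 7 to 10.9 RPKM in AOS and 16.0 to 18.7 RPKM in Con. It was 0.74 without Con mouse 3 and AOS mouse 3 (unadjusted p = 0.051), and 0 receptors had an unadjusted p under 0.05. STZ+AOS against STZ gave 0 called receptors and 0 called genes (0.00%), with 0 receptors and 6.07% of genes at an unadjusted p under 0.05. All 10 receptors overlapped between those groups, against 5.13% of all genes that did not overlap. The 95% interval for Ppard was -0.58 to 0.29.

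The transplants were set against STZ to ask whether microbiota moved the receptors of diabetic livers. In A10-FMT against STZ, 0 receptors were called, against 0.226% of all genes (0.0660% higher and 0.160% lower). In Con-FMT against STZ, 0 were called, against 0.00943%. At an unadjusted p under 0.05 the counts were 1 of 10 in each, against 20.9% and 20.1% of all genes. Both comparisons share the STZ mice with STZ against Con, so that their values are not independent of it.

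Ppard stayed low after either transplant. It stood at 2.39, 2.19 and 2.64 RPKM in A10-FMT and 2.81, 2.03 and 2 RPKM in Con-FMT, inside or below the STZ range of 2.31 to 5.36 RPKM. The differences from STZ were -0.36 (95% interval -0.79 to 0.08, adjusted p = 0.33) and -0.42 (95% interval -0.85 to 0.02, adjusted p = 0.26). When single mice were left out, they ran from -0.56 to -0.084 and from -0.62 to -0.15. All 6 transplanted mice lay below all Con mice.

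Hnf4a was the receptor that lay apart from STZ in both transplants, at 146, 121 and 158 RPKM in A10-FMT and 157, 144 and 164 RPKM in Con-FMT against 172 to 190.4 RPKM in STZ, but neither difference passed (-0.34, unadjusted p = 0.010, adjusted p = 0.14, and -0.21, adjusted p = 0.32). Nr5a2 lay apart from STZ in Con-FMT only, at 13.3, 13.8 and 12.8 RPKM (difference -0.28, unadjusted p = 0.026, adjusted p = 0.19), and at 15.04, 14 and 13.5 RPKM in A10-FMT it overlapped by 1 mouse. Groups without overlap were 1 receptor in A10-FMT, lower, against 21.5% of all genes (7.61% higher and 13.9% lower), and 2 in Con-FMT, lower, against 17.7% (8.32% higher and 9.38% lower). The summed RPKM of the erythroid markers also did not overlap between Con-FMT (2344 to 9167) and STZ (470 to 1874). The part of these cells in the receptor values was not tested.

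STZ mouse 3 bears on these comparisons. Without it, 1343 genes (12.7%) and 1636 genes (15.5%) were called in A10-FMT and Con-FMT against STZ, whereas 113 and 0 were called without STZ mouse 1 and 0 and 0 without STZ mouse 2. Nr1i2, at 32.8, 33.8 and 38.0 RPKM in A10-FMT and 37.8, 30.5 and 36.02 RPKM in Con-FMT, was then called as lower in both (-0.51, adjusted p = 0.029, and -0.51, adjusted p = 0.025), where it was -0.32 and -0.33 with all mice. Nr1i3, at 105, 107 and 117 RPKM in A10-FMT and 112, 76.9 and 80.0 RPKM in Con-FMT, was then called as lower in Con-FMT (-0.88, adjusted p = 0.049). The 1 and 2 receptors of 10 called without STZ mouse 3 are near those shares of all genes, and 0 were called without STZ mouse 1 or 2.

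Of the pathway lists, 0 genes passed in either transplant against STZ with all mice as deposited. Vnn1, a pantetheinase under Ppara, came nearest in A10-FMT, at 1.86, 1.14 and 0.81 RPKM against 5.08, 4.25 and 3.71 RPKM in STZ (difference -1.25, adjusted p = 0.055). After median-ratio scaling Vnn1 passed as lower in both A10-FMT (-1.19, adjusted p = 0.045) and Con-FMT (-1.18, adjusted p = 0.040), and the further nuclear receptor Rora in Con-FMT (-0.57, adjusted p = 0.039). Abcb11, at 97.6, 79.9 and 77.8 RPKM in A10-FMT and 99.8, 99.3 and 107 RPKM in Con-FMT against 111 to 172 RPKM in STZ, lay apart from STZ in both (-0.68 and -0.41, adjusted p = 0.064 and 0.16). Cyp7a1, the rate-limiting enzyme of bile acid synthesis, stood at 75.7, 65.0 and 90.7 RPKM in A10-FMT against 75.5, 25.5 and 25.1 RPKM in STZ (difference 1.04, adjusted p = 0.18).

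Against Con, A10-FMT livers had 8 called receptors (7 higher and 1 lower, against 18.4% of all genes, 15.9% higher and 2.47% lower) and Con-FMT livers had 5 (4 higher and 1 lower, against 19.4%, 17.5% higher and 1.89% lower). Without overlap with Con were 9 receptors in A10-FMT (8 higher and 1 lower, against 48.9% of all genes, 41.7% higher and 7.17% lower) and 7 in Con-FMT (6 higher and 1 lower, against 45.9%, 40.7% higher and 5.22% lower). These comparisons and STZ against Con use the same Con mice, and the values are given side by side for that reason. Ppard differed by -2.45 in A10-FMT and -2.51 in Con-FMT. Nr1i3 differed by 1.25 (adjusted p = 0.021) and 0.95 (adjusted p = 0.054), Nr1i2 by 0.60 and 0.59, Nr5a2 by 0.56 and 0.47, Rxra by 0.45 and 0.50, and Hnf4a by 0.41 and 0.54. Pparg differed by 0.84 (adjusted p = 0.027) and 0.47 (adjusted p = 0.15), and Nr1h4 by 0.49 (adjusted p = 0.039) and 0.12 (adjusted p = 0.57, turning to -0.10 after median-ratio scaling). Ppara and Nr1h3 were called in neither. Without Con mouse 3, Ppard and Nr5a2 were called in A10-FMT, and Ppard, Hnf4a and Rxra in Con-FMT, against 6.50% and 6.67% of all genes. After median-ratio scaling Ppard, Nr1i3 and Nr5a2 were called in A10-FMT, beside 1164 of 10602 genes, and Ppard in Con-FMT, beside 874 of 10602 genes. Markers of other cells stood apart from Con here as well. In A10-FMT the summed RPKM of the stellate cell markers was 102 to 112 (73.2 to 85.04 in Con) and that of the lymphocyte and neutrophil markers 2.48 to 4.20 (4.81 to 11.85 in Con). Most of the stellate sum was Dcn (87.4 to 97.85 RPKM in A10-FMT, 61.4 to 71.6 RPKM in Con), and 0 of 7 stellate markers were called. In Con-FMT the sum of the erythroid markers was 2344 to 9167 (1256 to 1972 in Con) and that of the endothelial markers 57.4 to 73.4 (49.0 to 55.5 in Con). Their part in the receptor values was not tested.

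The transplants themselves were compared to ask whether the AOS treatment of the donor mattered. A10-FMT against Con-FMT gave 0 called receptors and 0 called genes (0.00%), with 2.86% of genes and 1 receptor, Nr1h4, at an unadjusted p under 0.05. Nr1h4 stood at 82.1, 80.3 and 88.8 RPKM in A10-FMT and 78.6, 62.1 and 55.1 RPKM in Con-FMT, without overlap (difference 0.37, 95% interval 0.05 to 0.68, adjusted p = 1.00). Pparg was the other receptor without overlap, at 6.69, 7.51 and 6.35 RPKM against 5.71, 3.98 and 5.65 RPKM (0.37, 95% interval -0.12 to 0.86). Both were higher in A10-FMT, beside 8.92% of all genes without overlap (2.94% higher and 5.98% lower). Ppara stood at 20.9, 25.4 and 27.2 RPKM against 26.6, 18.6 and 15.4 RPKM, and Nr1h3 at 47.3, 38.5 and 44.6 RPKM against 48.2, 44.2 and 49.1 RPKM, with overlap.

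Within the PPAR family the balance of transcripts changed with the fall of Ppard. Of the summed RPKM of the 3 PPAR genes, Ppard made up 47.8% ± 4.6 (SD, n = 3) in Con, 25.9% ± 6.0 in AOS, 12.1% ± 6.7 in STZ, 9.82% ± 3.2 in STZ+AOS, 7.17% ± 0.87 in A10-FMT and 8.31% ± 0.33 in Con-FMT. Ppara made up 43.1% in Con and 67.9% in STZ, and Pparg 9.13% and 20.0%. The share of Ppard ran from 43.0% to 52.1% in Con and from 19.7% to 31.5% in AOS, and the highest share in a mouse given streptozotocin was that of STZ mouse 3, at 19.8%. The ratio of Nr1i3 to Nr1i2, both sensors of foreign compounds, was 1.65 to 2.41 in Con and 2.37 to 4.29 in STZ. These shares restate the values above and were not tested.

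**Figure D5:**
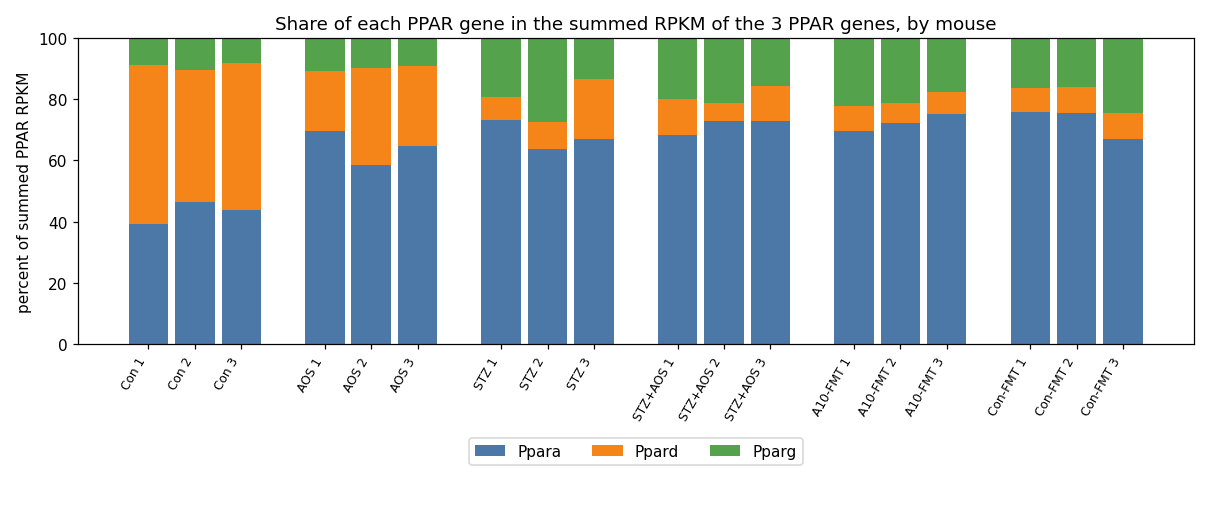
Share in percent (vertical axis) of Ppara, Ppard and Pparg in the summed RPKM of the 3 PPAR genes, 1 bar per mouse, grouped by treatment. Ppard takes 43.0% to 52.1% in Con mice and 19.8% or less in every mouse given streptozotocin.

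Over all 6 groups, the order of mean levels of Ppard was Con-FMT, A10-FMT, STZ+AOS, STZ, AOS and Con from low to high, with overlapping mice between neighbours among the 4 groups given streptozotocin and none between STZ and AOS or between AOS and Con. For Nr5a2 the order was Con, AOS, Con-FMT, A10-FMT, STZ and STZ+AOS, with no overlap at the first 2 steps. For Nr1h3, Nr1h4 and Ppara all neighbouring groups overlapped, and the lowest and highest single values over the 18 libraries were 37.1 and 49.1, 54.4 and 88.8, and 12.01 and 27.9 RPKM.

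The genes whose levels ran most like those of each receptor were found by Pearson's r of log2(RPKM + 1) over the 18 libraries, which share groups, depth and composition. For Ppard these were E2f8 (0.96), a cell cycle repressor, and Capn8 (0.96). For Nr1i3 they were Mgst3 (0.98), a microsomal glutathione transferase, and Akr1d1 (0.97), a reductase of bile acid synthesis, and for Nr1i2 Rpl3 (0.95). Hnf4a ran with Dhx15 and Ubqln4 (0.97 each), Rxra with Bfar and Cyp4a10 (0.955 and 0.945) and Nr5a2 with Fam13a and Pde3b (0.95 and 0.94). Pparg ran with the clock gene Per3 (0.93) and Mrpl10 (0.92), Nr1h4 with Kank2 and Wee1 (0.89 and 0.88), Ppara with Rnf167 and Rufy3 (0.88 and 0.84) and Nr1h3 with Arfrp1 and Brf2 (0.86 and 0.83).

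Positions of the receptors are given in GRCm38 from GENCODE M21. Ppara spans chr15:85734983-85802819, Ppard chr17:28232700-28301474, Pparg chr6:115360951-115490399, Nr1i2 chr16:38248323-38294824, Nr1i3 chr1:171213970-171220701, Nr1h3 chr2:91184061-91202834, Nr1h4 chr10:89454234-89533585, Nr5a2 chr1:136842571-136960448, Hnf4a chr2:163506808-163572910 and Rxra chr2:27676440-27762957. The table holds 1 value per gene symbol, so isoforms cannot be told apart.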

How the data were processed

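Poly(A) RNA of 18 livers was sequenced, and the authors mapped the reads to reference genes with SOAPaligner and deposited 1 RPKM value per gene and library. The submitters' processing notes also name Bowtie 0.12.2 and mm10. All 18 columns were mapped to groups by their labels. Of 19057 rows, 3 symbols were repeated and 26 looked like dates. Whether counting used strand is not given in the sources used here. Division by mapped reads makes RPKM depend on the most abundant transcripts, so scaling was varied.

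Values were fitted as log2(RPKM + 1) with limma 3.58.1 in R 4.3.3 (group means, eBayes with trend, Benjamini-Hochberg adjustment over all genes, two-sided) for genes that reached 1 RPKM in 3 or more libraries. The model held 4 groups (12 libraries, 10602 genes), or 6 groups (18 libraries, 10822 genes) for comparisons with AOS or STZ+AOS. The log2 scale with an added 1 understates changes of low genes. RPKM are not counts, so no count test was run. Depth was estimated from single-read steps of 40 to 66 short genes per library and covers counting error only. The steps were sought in a window set beforehand, which bounds the estimate. The ratio of the next step to the first was 1.72 to 2.025, where exact steps would give 2, so the depth is rough. With 3 against 3 mice an exact permutation test cannot go below p = 0.1 and was not used. Mice share numbers 1 to 3 across groups, and no label says that a number marks a shared batch. The deviations of same-numbered mice correlated above 0.1 in all 3 pairs for A10-FMT and Con-FMT alone (0.12, 0.29 and 0.18). This was seen in the data and does not show that the mice were matched. All main results come from a fit without pairing. A replicate block over all groups in the fit was run only as an alternative. The fit was tested on simulated data for STZ against Con (10482 genes), where it recovered 194 of 200 genes changed by 2 on the log2 scale with 13 false calls. The simulated mice were independent, with 1 spread per gene in all groups. The deposited STZ mice were less alike (mean r within the group 0.953 to 0.969) than Con mice (0.990 to 0.994). The planted change was also larger than that of every receptor but Ppard. The simulation thus does not give the share of false calls in these data.

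The receptors and all gene lists were chosen with earlier results of these data known. Named genes were the receptors, the called genes of each list with the lowest adjusted p between STZ and Con (up to 4, or 6 for other nuclear receptors), the lowest 2 per list for each transplant against STZ and for STZ+AOS against AOS, any gene of a list of 8 or fewer, and the 2 genes most correlated with each receptor, of which 1 is not reported here. Marco, Ctrb1, Alb, the adipocyte markers, Fabp1, Fasn, Acaca and the urinary protein genes were named after their values were seen. Promoter windows are RefSeq's (GRCm38.p6) and held all 10 receptors. Alternatives were quantile normalization, median-ratio scaling, median centring, a pseudocount of 0.1, other filters, eBayes without trend, other sets of groups, a replicate block and leaving out each mouse. Leaving out Con mouse 3 and AOS mouse 3 together was added after seeing the data.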

Additional observations from a re-analysis of the deposited data

How the results depend on the processing

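When single mice were left out, the receptor count in STZ against Con ran from 6 to 7, beside 2562 of 10576 to 5012 of 10580 genes. It ran from 0 to 1 in A10-FMT against STZ (0 to 1343 genes) and from 0 to 2 in Con-FMT against STZ (0 to 1636 genes). In A10-FMT against Con it ran from 2 to 8, beside 547 of 10576 to 2669 of 10580 genes. In Con-FMT against Con it ran from 3 to 7, beside 603 of 10559 to 2811 of 10580 genes. In STZ+AOS against AOS it ran from 5 to 8, beside 2767 of 10813 to 4451 of 10808 genes. Without both Con mouse 3 and AOS mouse 3 it was 4 there, beside 2494 of 10790 genes. Quantile normalization, median-ratio scaling and median centring gave 3, 3 and 3 called receptors in A10-FMT against Con, beside 1109, 1164 and 1171 of 10602 genes. In Con-FMT against Con they gave 1, 1 and 2, beside 824, 874 and 888 of 10602 genes. In STZ+AOS against AOS they gave 4, 3 and 3, beside 2729, 2654 and 2703 of 10822 genes. Over all genes, STZ against Con gave 4087 calls, 2651 with only the groups compared, 2562 without Con mouse 1, 2630 without STZ mouse 2 and 5012 without STZ mouse 3. The cause was not tested.

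Under quantile normalization, median-ratio scaling and median centring, in that order, differences of the opposite sign were found for Nr1h3 (-0.25, -0.25, -0.23), Nr1h4 (-0.019, -0.032, -0.013) and Thrb (-0.019, -0.016, -0.032) in STZ against Con. They were also found for Nr1h3 in A10-FMT against Con (-0.12, -0.087, -0.058), Nr1h4 in Con-FMT against Con (-0.15, -0.10, -0.085), Pparg in AOS against Con (-0.020, -0.025, -0.027) and Pparg in STZ+AOS against STZ (-0.064, -0.031, -0.058). Quantile normalization alone reversed Apoa1 in STZ against Con (0.063), Nr1h3 in Con-FMT against Con (-0.0072) and Rxra in the difference between the streptozotocin effects (0.038). Median-ratio scaling and median centring reversed Rxra in Con-FMT against STZ (0.017, 0.018) and STZ+AOS against STZ (-0.0075, -0.025) and Nr1h3 in STZ+AOS against AOS (-0.052, -0.063). Median centring alone reversed Rxra in A10-FMT against STZ (0.0024).

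Leaving out single mice turned the direction of some differences that were not called, with these ranges. STZ against Con gave Baat from -0.093 to 0.046, Cyp7a1 from -0.11 to 0.66, Cyp8b1 from -0.31 to 0.22 and Nr1h3 from -0.068 to 0.053. A10-FMT against STZ gave Fabp4 from -0.60 to 0.054, Nr1i3 from -0.58 to 0.12, Pparg from -0.081 to 0.35 and Rxra from -0.13 to 0.018. Con-FMT against STZ gave Cd36 from -0.48 to 0.13, Cyp7a1 from -0.12 to 0.75, Fabp4 from -0.42 to 0.31, Ppara from -0.25 to 0.17 and Rxra from -0.073 to 0.065. Con-FMT against Con gave Nr1h4 from -0.020 to 0.23. AOS against Con gave Nr1h4 from -0.13 to 0.0037 and Pparg from -0.093 to 0.19. A10-FMT against Con-FMT gave Nr1i2 from -0.082 to 0.068 and Rxra from -0.11 to 0.022. STZ+AOS against STZ gave Hnf4a from -0.092 to 0.47, Ppara from -0.037 to 0.34, Ppard from -0.34 to 0.13, Pparg from -0.27 to 0.16 and Rxra from -0.0060 to 0.13. STZ+AOS against AOS gave Cyp7a1 from -0.47 to 1.77, Cyp8b1 from -1.76 to 0.44 and Ppara from -0.16 to 0.17. The difference between the streptozotocin effects gave Hnf4a from -0.26 to 0.30, Pparg from -0.30 to 0.13 and Rxra from -0.12 to 0.019.

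Mice share numbers across groups. Deviations of 45 same-numbered pairs correlated at -0.25 to 0.47 (median 0.032), above 0.1 in 16. With the replicate block 6 receptors were called in STZ against Con (3714 of 10602 genes) and 6 in A10-FMT against Con (1441 of 10602). In Con-FMT against Con 4 were called (1453 of 10602), and in STZ+AOS against AOS 6 were (4029 of 10822). Only A10-FMT and Con-FMT had all 3 pairs above 0.1, and there the block changed no call (0 receptors and 0 genes).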
